A study of Drosophila melanogaster with 7 samples.

Results

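The tubulin gene family was examined in sorted ovarian cells of Drosophila melanogaster after knockdown of Atx2, the fly Ataxin-2 gene. Its 10 members were taken by gene symbol from a table of 13771 genes: alphaTub84B, alphaTub84D, alphaTub67C, alphaTub85E, betaTub56D, betaTub60D, betaTub85D, betaTub97EF, gammaTub37C and gammaTub23C. Together they have 14 listed transcripts of 29939. The bam promoter is active in dividing germline cysts, and the cells carried it in a GFP reporter. They were sorted as live GFP-positive cells from ovaries digested with collagenase and elastase at 37 °C. In both groups the nos-GAL4::VP16 driver, which is active in the germline, expressed a short hairpin RNA. In the Atx2 KD group (4 libraries) the hairpin targeted Atx2, and in the Control KD group (3 libraries) it targeted mCherry, a fluorescent protein. Somatic cells that pass the sort would not be expected to carry the knockdown. The ages of the flies, and whether animals were pooled, are not given in the sources used here. Whether the libraries came from separate animals is not stated either, so p-values measure the spread between these libraries.

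Microtubules are polymers of alpha- and beta-tubulin dimers, and gamma-tubulin, within a ring complex, starts their assembly. Flies carry several genes for each type. alphaTub84B, alphaTub84D and betaTub56D are broadly expressed, and gammaTub23C is the gamma-tubulin of most dividing cells. alphaTub67C and gammaTub37C are maternal copies, made in the female germline for the egg, its meiotic spindle and the early embryo. betaTub85D is the testis copy, needed for spermatocyte spindles and the sperm tail, and alphaTub85E and betaTub60D are known from somatic cell types such as chordotonal organs and muscle.

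Library totals ranged from 65262402 to 101809997 estimated counts. Atx2 itself averaged 233 ± 28.7 CPM in Atx2 KD (SD, n = 4) and 420.2 ± 27.3 CPM in Control KD (SD, n = 3), where CPM is the count scaled to library size after TMM normalisation. The label calls the cells germ cells, and the germline gene vas stood at 337 to 441 CPM in Atx2 KD and 365 to 473 CPM in Control KD. Genes of other cells were present too: tj, a gene of somatic gonad cells, was at 609.8 to 749 CPM in Atx2 KD and 521 to 759 CPM in Control KD, and the muscle myosin gene Mhc was at 174 to 252 CPM in Atx2 KD and 90.4 to 137 CPM in Control KD. In bulk samples of this kind, fewer cells of a type and less RNA per cell cannot be told apart.

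The family was dominated by a single alpha and a single beta gene. Levels between genes are compared as TPM, which is scaled for transcript length. betaTub56D averaged 1314 TPM over the 7 libraries, between 1108 and 1427, and ranked 122 of 13771 genes. alphaTub84B averaged 1224 TPM, between 1040 and 1376, and ranked 123. These ranges overlapped, and betaTub56D was above alphaTub84B in 6 of 7 libraries. alphaTub84D was next at 169 TPM, so the level of alphaTub84B was 7.23 times that of alphaTub84D, and those ranges did not overlap. betaTub60D averaged 147 TPM, overlapping alphaTub84D, although alphaTub84D was above it in 5 of 7 libraries. alphaTub67C followed at 92.3 TPM, and betaTub97EF ranged from 41.2 to 81.6 TPM. The ranges of alphaTub67C overlapped those of both its neighbours, but betaTub60D was above it in 7 of 7 libraries and it was above betaTub97EF in 6 of 7. The gamma genes were lowest among the clearly detected copies, with gammaTub37C at 29.7 TPM and gammaTub23C at 23.2 TPM, and gammaTub37C was above gammaTub23C in 6 of 7 libraries.

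**Figure D1:**
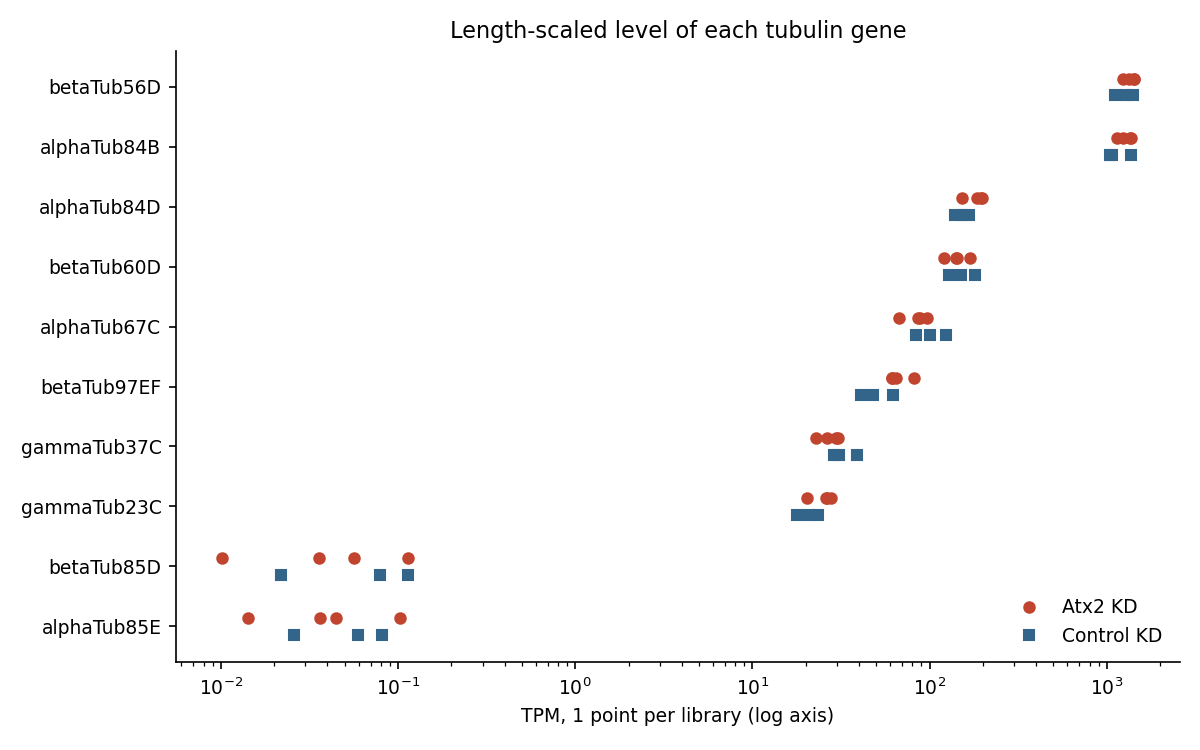
Level of each tubulin gene in TPM on a log axis, with 1 point per library, Atx2 KD as circles above and Control KD as squares below in each row. betaTub56D and alphaTub84B lie at or above 1040 TPM, 6 further genes lie between 17.9 and 197 TPM, and betaTub85D and alphaTub85E stay at or below 0.114 TPM.

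The testis copy and the chordotonal copy were at the edge of detection. betaTub85D (FBgn0003889, arm 3R, 9408383 to 9410282, minus strand) had 6, 13, 1 and 3 reads in Atx2 KD replicates 1 to 4, and 8, 2 and 15 reads in Control KD replicates 1 to 3. alphaTub85E (FBgn0003886, arm 3R, 9731221 to 9733250, minus strand) had 4, 10, 3 and 1 reads in Atx2 KD, and 5, 2 and 9 reads in Control KD. The groups overlapped for both genes. A count of 3 corresponds to between 0.0303 and 0.0465 CPM in these libraries, counting error only, and both genes ranged around that floor, from 0.0133 to 0.163 CPM for betaTub85D and from 0.0150 to 0.125 CPM for alphaTub85E. They did not pass the count filter, so 8 of the 10 members were tested. Of 10 spermatocyte marker genes 6 were tested and 1 was called, higher, where 5.61% of all genes were. It was aly, a regulator of spermatocyte transcription, at 0.753 ± 0.155 CPM in Atx2 KD (SD, n = 4) and 0.114 ± 0.0224 CPM in Control KD (SD, n = 3). edgeR put its difference at 2.70 ± 0.36 on the log2 scale (SE; adjusted p = 0.00272). The others differed by 0.63 (can), 0.13 (topi), -0.17 (mia), -0.19 (tomb) and -0.87 (comr), and the median of the list was -0.02. Its summed level overlapped, at 17.3 to 20.1 CPM in Atx2 KD and 18.3 to 20.4 CPM in Control KD. The sperm genes dj and Mst87F were at 0 to 0.0251 and 0 to 0.251 CPM in Atx2 KD, and at 0 to 0.0303 and 0.0125 to 0.101 CPM in Control KD.

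No tubulin gene passed the threshold between Atx2 KD and Control KD in the test on group alone. edgeR's quasi-likelihood test called 0 of the 8 tested members at an adjusted p of 0.05, against 13.3% of all 10514 tested genes (5.61% higher and 7.67% lower in Atx2 KD). At an unadjusted p under 0.05 there were 4 of 8, where all genes gave 30.6%, and DESeq2 called 0 of the 8 after adjustment, where 20.4% of all genes passed in it. With the replicate number as a block, 4 of 8 passed, where 28.0% of all genes did. alphaTub84D and betaTub97EF were higher (13.8% of all genes were), and alphaTub67C and gammaTub37C were lower (14.2% of all genes were). Atx2 KD replicate 4 has no partner, so that comparison comes from replicates 1 to 3. The median log2 fold change was 0.10 over the 8 members and 0.01 over all genes. The direction that holds the majority of all calls depended on scaling, with 42.3% of calls higher under TMM, 57.5% under upper-quartile scaling and 61.5% for log2(TPM + 1). The signs of the members named below as higher or lower were the same under each of these scalings.

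The maternal alpha copy alphaTub67C (FBgn0087040, arm 3L, 9681268 to 9683370, plus strand) stood at 90.0, 120.1, 76.3 and 95.8 CPM in Atx2 KD replicates 1 to 4, and at 135, 124 and 96.2 CPM in Control KD replicates 1 to 3. The groups overlapped, since replicate 2 with the Atx2 hairpin lay above control replicate 3. On the log2 scale the gene differed by -0.31 ± 0.16 (SE; edgeR adjusted p = 0.226). With the replicate block the difference was -0.32 ± 0.10 (SE; edgeR adjusted p = 0.0425). Within same-numbered pairs, the Atx2 KD library was lower by 0.58, 0.05 and 0.33 in log2 CPM, so the size of the difference varied between pairs. It has a single listed transcript, FBtr0076393, with 2 exons.

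The maternal gamma copy gammaTub37C (FBgn0010097, arm 2L, 19183863 to 19185726, minus strand) was at 30.4, 30.8, 24.6 and 30.4 CPM in Atx2 KD, and at 39.8, 36.0 and 31.3 CPM in Control KD. It was the single tested member, 1 of 8, whose groups did not overlap in CPM, where 27.4% of all tested genes did not overlap. In TPM its groups overlapped, at 22.9 to 30.5 in Atx2 KD and 28.9 to 38.9 in Control KD. edgeR gave a log2 difference of -0.30 ± 0.11 (SE; adjusted p = 0.0991). With the replicate block it gave -0.32 ± 0.07 (SE; adjusted p = 0.00781), and the Atx2 KD library was lower in 3 of 3 pairs, by 0.38, 0.23 and 0.34 in log2 CPM. Without Control KD replicate 3 it passed in the fit on group alone, at -0.39 with an adjusted p of 0.0479, where 13.7% of all genes passed. Without any other library it did not pass, with edgeR adjusted p from 0.111 to 0.349.

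The ubiquitous gamma copy gammaTub23C (FBgn0260639, arm 2L, 2972891 to 2974858, plus strand) was higher on average, without passing either test. It was at 31.9, 28.6, 33.8 and 34.9 CPM in Atx2 KD, and at 29.7, 25.6 and 27.4 CPM in Control KD. Only Atx2 KD replicate 2 lay within the range of the controls. Its log2 difference was 0.23 ± 0.09 (SE; edgeR adjusted p = 0.121), and 0.19 ± 0.07 (adjusted p = 0.0677) with the replicate block.

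The balance of the gamma copies did not overlap between the groups. gammaTub37C made up 53.7%, 56.2%, 46.8% and 51.6% of summed gamma-tubulin TPM in Atx2 KD, and 62.5%, 63.2% and 58.2% in Control KD. The means were 52.1 ± 4.01% in Atx2 KD (SD, n = 4) and 61.3 ± 2.69% in Control KD (SD, n = 3), a difference of -9.22 percentage points, given without a test because the copies were chosen with earlier results known. All Atx2 KD libraries lay below all controls. In CPM 27.4% of all tested genes did not overlap, and how often shares of other gene pairs do so was not computed. The ratio of gammaTub37C to gammaTub23C was 1.16, 1.29, 0.878 and 1.07 in Atx2 KD, and 1.66, 1.72 and 1.39 in Control KD. The summed gamma-tubulin level was similar in both groups, at 52.5 ± 5.50 TPM in Atx2 KD (SD, n = 4) and 53.6 ± 7.55 TPM in Control KD (SD, n = 3), with overlap.

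**Figure D2:**
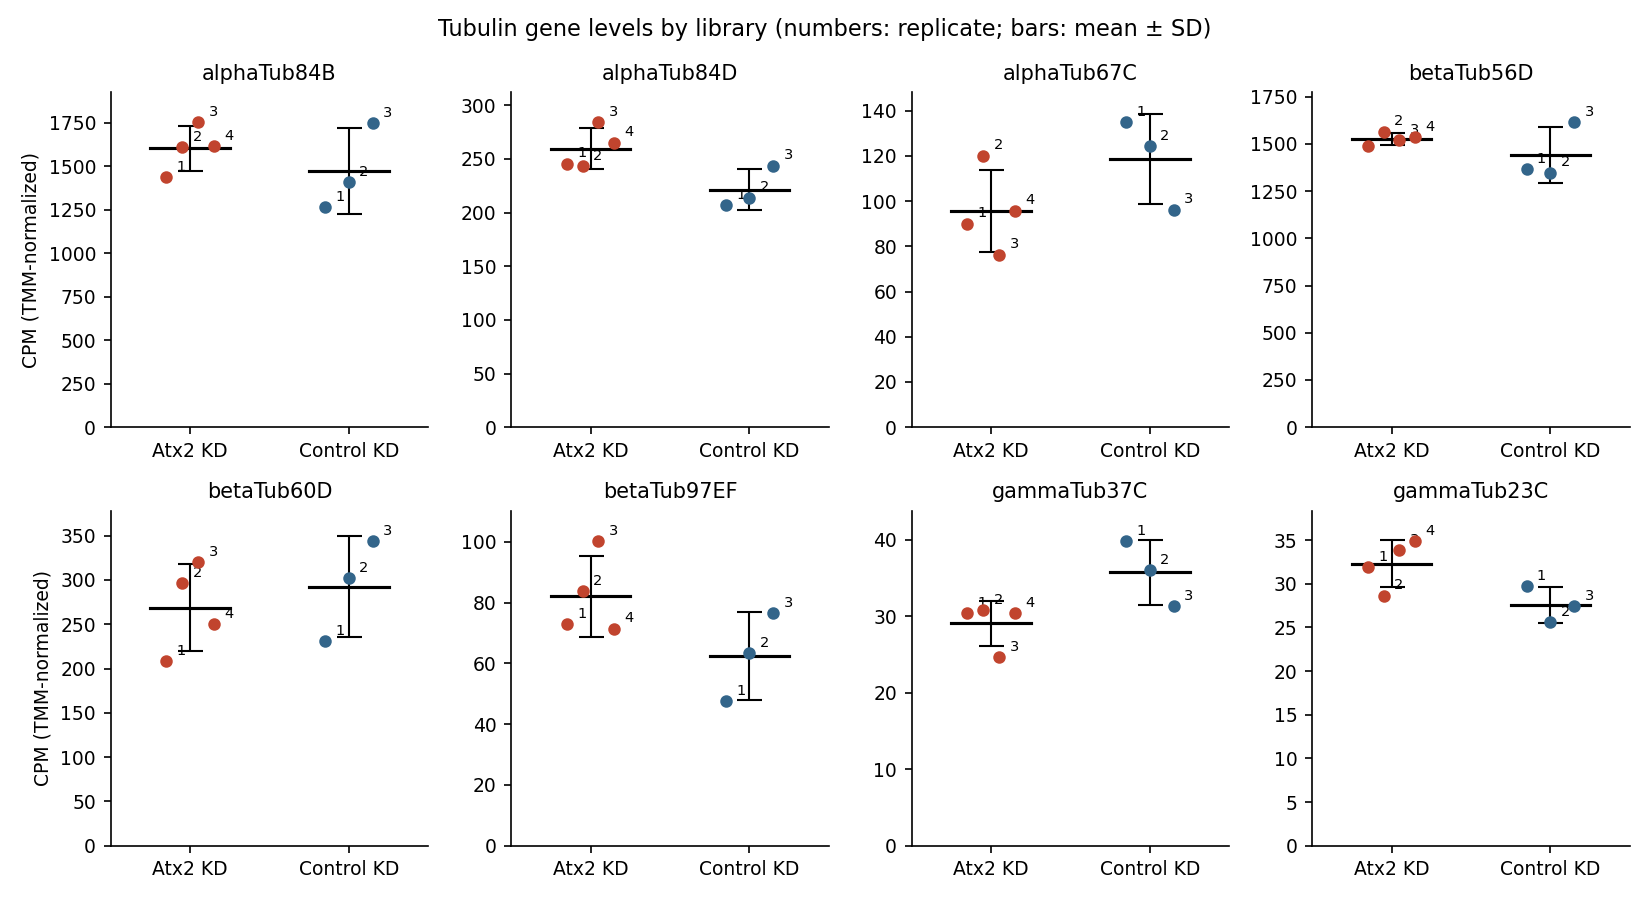
CPM of the 8 tested tubulin genes by library on linear axes from 0, Atx2 KD left and Control KD right, numbered by replicate, with mean and SD. gammaTub37C is the panel with no overlap, and for 6 of the 8 genes replicate 3 is the extreme library of both groups.

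alphaTub84B (FBgn0003884, arm 3R, 7086599 to 7088839, plus strand), the main alpha-tubulin gene, stood at 1438, 1612, 1753 and 1615 CPM in Atx2 KD, and at 1268, 1408 and 1749 CPM in Control KD. The groups overlapped widely, with control replicate 3 beside the highest Atx2 KD library. edgeR put the difference at 0.12 ± 0.12 log2 units (SE; adjusted p = 0.549).

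Its close copy alphaTub84D (FBgn0003885, a single exon on arm 3R, 7530753 to 7532732, plus strand) stood at 246, 243, 284 and 265 CPM in Atx2 KD, and at 207, 214 and 244 CPM in Control KD. Atx2 KD replicate 2 lay just below control replicate 3, and the other libraries were apart by group. The fitted log2 difference was 0.23 ± 0.09 (SE; edgeR adjusted p = 0.112), and 0.22 ± 0.06 (adjusted p = 0.0267) with the replicate block. The difference was 0.25, 0.18 and 0.22 in log2 CPM in pairs 1 to 3.

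Reads were shared between these copies. In all 7 libraries the estimated counts of alphaTub84B and alphaTub84D were not whole numbers (more than 0.01 away), while their sum was whole in every library, so reads were divided between this pair. The ratio of alphaTub84B to alphaTub84D TPM was 7.02 ± 0.337 in Atx2 KD (SD, n = 4) and 7.57 ± 0.574 in Control KD (SD, n = 3), with overlap, and how far it rests on the division of shared reads was not tested. Summed into 1 gene, the pair differed by 0.14 ± 0.12 in log2 (SE; edgeR adjusted p = 0.485). alphaTub67C and the gamma genes had whole counts in all libraries. betaTub56D and betaTub97EF were whole except in control replicate 3, where their sum was whole.

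**Figure D3:**
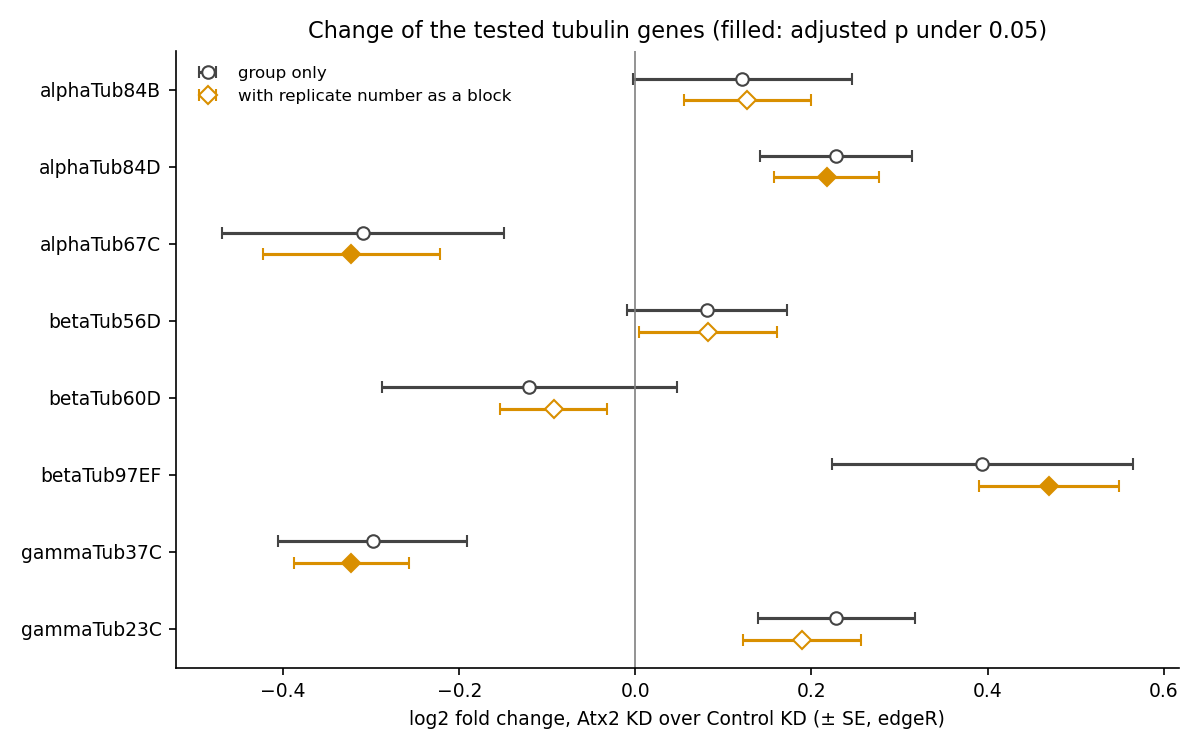
Log2 fold change of the 8 tested tubulin genes, Atx2 KD over Control KD, with SE from edgeR, for the fit on group alone (circles) and with the replicate number as a block (diamonds), filled where the adjusted p is under 0.05. No circle is filled, and the diamonds of alphaTub84D, alphaTub67C, betaTub97EF and gammaTub37C are.

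The main beta gene betaTub56D (FBgn0284243, arm 2R, 19447319 to 19451600, minus strand) was at 1487, 1564, 1518 and 1535 CPM in Atx2 KD, and at 1367, 1348 and 1613 CPM in Control KD. The highest library was a control. Its fitted log2 difference was 0.08 ± 0.09 (SE; edgeR adjusted p = 0.587).

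betaTub97EF (FBgn0003890, arm 3R, 27967008 to 27988384, minus strand), a beta copy known to rise in flies kept in the cold, held a small share of beta-tubulin. It was at 72.8, 83.8, 100.3 and 71.4 CPM in Atx2 KD, and at 47.6, 63.3 and 76.5 CPM in Control KD. Control replicate 3 lay above Atx2 KD replicates 1 and 4. The fit on group alone gave 0.39 ± 0.17 (SE; edgeR adjusted p = 0.157), and 0.24 without Control KD replicate 1. The fit with the replicate block gave 0.47 ± 0.08 (SE; edgeR adjusted p = 0.00340), and the Atx2 KD library was higher by 0.61, 0.40 and 0.39 in log2 CPM in the 3 pairs. Its share of summed beta-tubulin TPM was 4.01%, 4.28%, 5.17% and 3.77% in Atx2 KD, and 2.84%, 3.68% and 3.76% in Control KD. Those shares did not overlap, though Atx2 KD replicate 4 and control replicate 3 were almost level. How often shares of other genes do so was not computed, and 27.4% of all tested genes did not overlap in CPM.

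betaTub60D (FBgn0288686, arm 2R, 24305881 to 24313099, plus strand) is known from muscle and other somatic cells. It stood at 209, 297, 319.8 and 251 CPM in Atx2 KD, and at 231, 302 and 344 CPM in Control KD. The groups overlapped, and the log2 difference was -0.12 ± 0.17 (SE; edgeR adjusted p = 0.667). All 8 muscle markers were higher in Atx2 KD in the same test, by 0.68 to 0.97 in log2, where 5.61% of all genes were higher. Their summed level was 1117 to 1547 CPM in Atx2 KD and 661 to 990.1 CPM in Control KD.

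**Figure D4:**
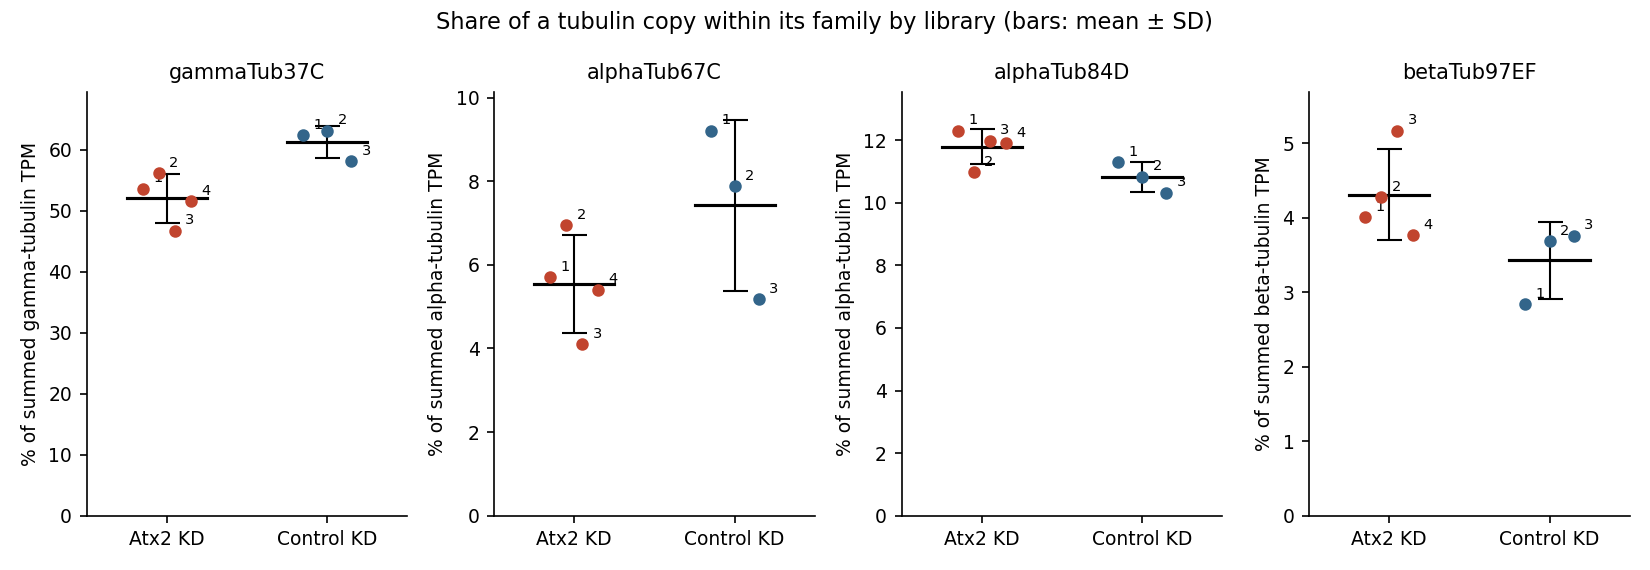
Share of summed family TPM held by gammaTub37C, alphaTub67C, alphaTub84D and betaTub97EF by library, Atx2 KD left and Control KD right, numbered by replicate, with mean and SD. The gammaTub37C shares are 46.8% to 56.2% in Atx2 KD and 58.2% to 63.2% in Control KD, while the alphaTub67C shares overlap.

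As whole families, alpha- and beta-tubulin overlapped between the groups. Alpha-tubulin summed to 1542 ± 116 TPM in Atx2 KD (SD, n = 4) and 1412 ± 178 TPM in Control KD (SD, n = 3). Beta-tubulin summed to 1562 ± 83.7 TPM in Atx2 KD and 1468 ± 169 TPM in Control KD. The ratio of alpha to beta was 0.987 ± 0.0437 in Atx2 KD and 0.962 ± 0.0330 in Control KD. All tubulins made up 0.288% to 0.332% of TPM in Atx2 KD and 0.263% to 0.331% in Control KD. alphaTub67C held 5.54 ± 1.16% of alpha-tubulin TPM in Atx2 KD (SD, n = 4) and 7.43 ± 2.05% in Control KD (SD, n = 3), with overlap.

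Over all tested genes, deviations of same-numbered libraries from their group means correlated at r = 0.246, 0.514 and 0.638 for replicates 1, 2 and 3. For differently numbered libraries r reached 0.191. Among the tubulin genes, replicate 1 of alphaTub67C did not move alike in both groups. It was below the group mean of 95.6 CPM in Atx2 KD, at 90.0 CPM, and the highest library in Control KD, at 135 CPM. Replicate 3 was the highest library of both groups for alphaTub84B, alphaTub84D, betaTub60D and betaTub97EF, and the lowest of both groups for alphaTub67C and gammaTub37C, which leaves 2 of the 8 tested members without this pattern. Mean log2 CPM of 14 heat shock genes was also higher in replicates 3 and 4, at 8.64 to 8.87, than in replicates 1 and 2, at 7.51 to 8.07, over both groups. Among the 4 libraries numbered 1 and 2, gammaTub37C differed by -0.31 (Atx2 KD minus Control KD), alphaTub67C by -0.32, alphaTub84D by 0.22 and betaTub97EF by 0.51 in mean log2 CPM. Among the 3 libraries numbered 3 and 4 these differences were -0.19, -0.17, 0.17 and 0.14. Only 1 of these last 3 is a control, so they are given without a test.

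Markers of several cell types differed between Atx2 KD and Control KD. The counts are from the fit on group alone, in which neither maternal tubulin copy passed. Of all tested genes, 7.67% were lower and 5.61% higher in that fit. With the replicate block 14.2% were lower and 13.8% higher. Of 10 late oogenesis germline genes such as osk and bcd, 5 were lower and 0 higher (9 lower with the replicate block), and the median was -0.50 in log2. Their summed level was 1505 to 2228 CPM in Atx2 KD and 2107 to 3030.4 CPM in Control KD. Of 10 germline genes, 6 were lower (AGO3, otu, nanos, ovo, zpg and krimp) and 1, bgcn, a partner of bam, was higher (7 lower and 1 higher with the replicate block), and the summed level was 1443 to 1956 CPM in Atx2 KD and 2162 to 2709 CPM in Control KD. Of 12 eggshell and yolk genes of follicle cells, 7 were lower and 0 higher (11 lower with the replicate block). All 12 summed to 3281 to 19055 CPM in Atx2 KD and 18270 to 36618 CPM in Control KD. None of the listed markers of these 3 kinds was at 0 in all libraries. When the mean of the eggshell and yolk genes was entered as a covariate, gammaTub37C differed by -0.35 and alphaTub67C by -0.08, at edgeR adjusted p of 0.358 and 0.910. Under the same covariate gammaTub23C differed by 0.06, betaTub97EF by 0.71, alphaTub84B by 0.33, betaTub56D by 0.16 and betaTub60D by 0.41, each more than 1.5 times away from its value without the covariate or opposite in sign, and 0 of the 8 members passed. The covariate itself did not overlap between the groups. It was 6.24 to 8.69 in mean log2 CPM in Atx2 KD and 9.10 to 9.77 in Control KD. This fit therefore cannot separate cell composition from group, and the part of cell composition in the tubulin values was not tested. Of 5 hemocyte markers 0 passed in the fit on group alone and 3 were higher with the replicate block. All 5 summed to 281 to 773 CPM in Atx2 KD and 161 to 338 CPM in Control KD. Of 10 early somatic genes 2 were higher, eya and Fas3 (3 with the replicate block). All 10 summed to 1408 to 1679 CPM in Atx2 KD and 1161 to 1502 CPM in Control KD.

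At the transcript level, 12 of the 14 tubulin transcripts were tested, and edgeR called 0 with or without the replicate block. Of all 21728 tested transcripts, 4.71% were called without the block (2.05% higher and 2.66% lower) and 3.01% with it (1.33% higher and 1.68% lower). By unadjusted p under 0.05 there were 2, FBtr0081538 of alphaTub84D (0.0304) and FBtr0077641 of gammaTub23C (0.0494), where all tested transcripts gave 22.1%. DESeq2 called 0 of the 12, where 15.7% of all transcripts passed in it. Each of 4 members has 2 listed transcripts. gammaTub37C has FBtr0081228 and FBtr0332572, which share every annotated coding block and differ in the length of the 3′ UTR, 73 against 180 bases in the BDGP6.54 annotation. The longer form held 14.4%, 11.9%, 19.5% and 12.4% of gammaTub37C TPM in Atx2 KD, and 11.1%, 21.9% and 13.7% in Control KD. These shares overlapped, and the fitted log2 differences were -0.27 ± 0.15 (SE) for the shorter and -0.41 ± 0.26 (SE) for the longer form (edgeR adjusted p = 0.342 and 0.401).

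betaTub60D has FBtr0072270 and FBtr0343443, which differ by 3 coding bases at the start of the third coding block, that is by a single codon. The shorter coding form, FBtr0343443, held 35.7%, 33.4%, 30.4% and 30.1% of betaTub60D TPM in Atx2 KD, and 30.1%, 32.3% and 28.6% in Control KD, with overlap. betaTub97EF has FBtr0300611 and FBtr0334906, which use alternative coding exons of the same length, 27969660 to 27969827 and 27969383 to 27969550. FBtr0334906 held between 0.0746% and 0.398% of betaTub97EF TPM in Atx2 KD and between 0.0791% and 0.376% in Control KD. The transcripts differ in this exon alone, so these shares are estimates that rest on the reads that reach it. betaTub56D has FBtr0086536 and FBtr0086537 with different first exons, and FBtr0086537 held 0.137% to 0.237% of betaTub56D TPM in Atx2 KD and 0.113% to 0.244% in Control KD. Unequal change among the transcripts of these 4 genes was tested with diffSpliceDGE of edgeR, which called 3.96% of 5103 genes, or 4.72% with the replicate block, and 0 of the 4 in either fit. Their unadjusted Simes p was 0.840 to 0.997 without the block. A limma test on transcript shares also called 0 of the 4, where it called 126 of all 5103 tested genes.

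Genes that work with tubulin were called most often in the list of gamma-tubulin partners. Of 19 genes of the gamma-tubulin ring complex and of its recruitment, 5 were higher and 1 lower in Atx2 KD at an edgeR adjusted p under 0.05, or 31.6% of the list beside 13.3% of all genes. The median log2 difference of the list was 0.18. With the replicate block 5 were higher and 3 lower, beside 28.0% of all genes. Of the 8 subunits of augmin, which brings the ring complex to existing microtubules, 3 were higher (msd5, msd1 and dgt4) and 0 lower. dgt5 differed by -0.27 ± 0.11 (SE; edgeR adjusted p = 0.151) and was lower with the replicate block (adjusted p = 0.0244), and dgt6 differed by -0.02. msd5 (FBgn0035210) averaged 14.7 ± 0.965 CPM in Atx2 KD (SD, n = 4) and 9.24 ± 0.184 CPM in Control KD (SD, n = 3), higher by 0.67 ± 0.09 in log2 (SE; edgeR adjusted p = 0.00315). msd1 (FBgn0035209) averaged 14.4 ± 0.886 CPM in Atx2 KD and 10.5 ± 0.678 CPM in Control KD, higher by 0.46 ± 0.10 (SE; edgeR adjusted p = 0.0183). Both genes lie on arm 3L on opposite strands and their exons overlap by 20 bases, and whether the counting used strand is not given in the sources used here. The call of msd5 held in 17 of 17 alternatives. That of msd1 held in 12 of 17. Among the fits without 1 library, it was lost without Atx2 KD replicate 4 (edgeR adjusted p = 0.0517), Control KD replicate 1 (0.0515) or Control KD replicate 2 (0.0784).

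Plp (FBgn0086690), a centrosome scaffold gene, was at 183 to 214 CPM in Atx2 KD and 128 to 157 CPM in Control KD, higher by 0.49 ± 0.09 in log2 (SE; edgeR adjusted p = 0.0111). Grip91 (FBgn0001612), a core subunit of the gamma-tubulin small complex, averaged 74.0 ± 3.78 CPM in Atx2 KD and 57.3 ± 1.92 CPM in Control KD, higher by 0.37 ± 0.07 (SE; edgeR adjusted p = 0.0136). The call held in 14 of 17 alternatives for Plp and in 13 of 17 for Grip91. Both lost it without Control KD replicate 2, with edgeR adjusted p of 0.0522 for Plp and 0.0690 for Grip91. Both also lost it in the libraries numbered 1 and 2, with edgeR adjusted p of 0.0583 and 0.127. Exons of Plp share 352 bases with sstn on the same strand, and exons of Grip91 share 269 bases with CG11151 on the other. Grip84, the other core subunit, differed by -0.18 ± 0.07 (SE; edgeR adjusted p = 0.113). dgt4, an augmin subunit, was higher by 0.37 and Grip71, which links augmin to the ring complex, was lower, at -0.34, with edgeR adjusted p of 0.0317 and 0.0456. Grip84, dgt4, dgt5, dgt6 and Grip71 were named after their values were seen. The calls of dgt4 and Grip71 were lost without 5 and 6 of the 7 libraries in turn, with edgeR adjusted p up to 0.106 and 0.192.

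In the remaining lists 1 or 2 genes each passed in the fit on group alone, where 13.3% of all genes did. The shares of tested genes were 5.0% for folding, 6.67% for ends and lattice, and 13.3% for modification and severing. With the replicate block 28.0% of all genes passed. Of 20 tubulin folding genes 1 was higher and 0 lower, with a median of 0.09 in log2, and 4 were higher with the replicate block. The 1 was Pfdn1, a prefoldin subunit, at 26.7 ± 3.33 CPM in Atx2 KD (SD, n = 4) and 20.7 ± 0.537 CPM in Control KD (SD, n = 3), higher by 0.37 ± 0.10 (SE; edgeR adjusted p = 0.0445). The 8 genes of the CCT chaperonin, which folds new tubulin, ranged from 0.02 (CCT2) to 0.29 (CCT5) and 0 passed in the fit on group alone. With the replicate block CCT1 and CCT5 were higher, at edgeR adjusted p of 0.0207 and 0.0137. Of 15 genes for microtubule ends and lattice 1 was higher, the spindle pole gene asp, by 0.38 ± 0.10 (SE; edgeR adjusted p = 0.0452), and 0 were lower, against 2 higher and 1 lower with the replicate block. Of 19 genes for tubulin modification and severing 15 were tested. TTLL4B, of the tubulin glutamylase family, was higher by 0.40 ± 0.09 (SE), edgeR adjusted p 0.0274, and Nna1, a carboxypeptidase that trims glutamate chains, was lower, at -0.47 ± 0.13 (SE), adjusted p 0.0438. Each of these 4 calls was lost without at least 3 of the 7 libraries in turn, with edgeR adjusted p up to 0.165. With the eggshell and yolk covariate, msd5, Pfdn1 and Nna1 were the 3 of the 10 called genes of these lists that passed, and asp differed by 0.03.

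**Figure D5:**
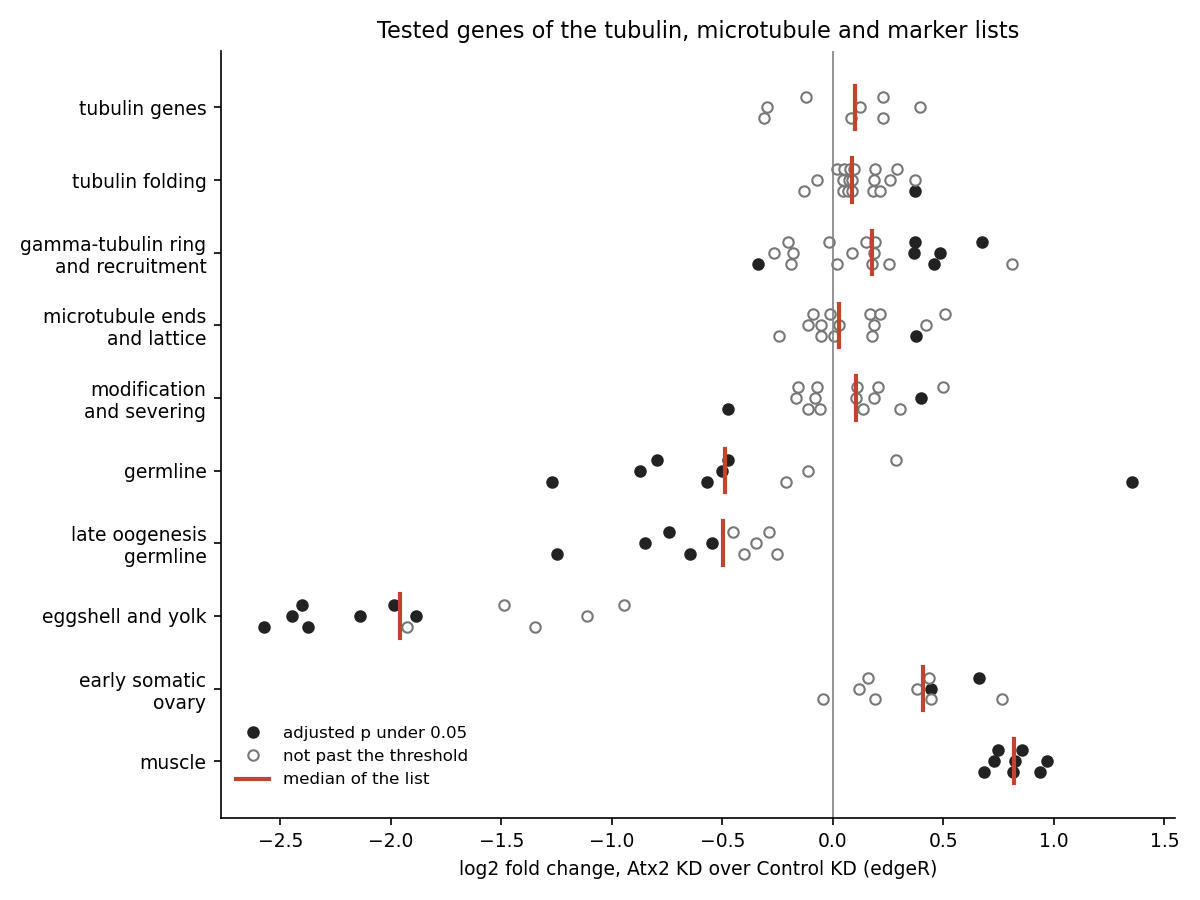
Log2 fold change of each tested gene, Atx2 KD over Control KD, in rows for the tubulin genes, the 4 lists of genes that work with tubulin and 5 marker lists, filled where the edgeR adjusted p is under 0.05, with the median of each list as a bar. The tubulin genes lie between -0.31 and 0.39 with no filled point, and the 8 muscle markers are all filled on the higher side.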

How the data were processed

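RNA was measured in 7 libraries, 4 Atx2 KD and 3 Control KD, grouped by their labels. Per the labels' protocols, rRNA-depleted, strand-directional libraries were made from 18 ng of total RNA without poly(A) selection, so RNA without a tail can contribute. The submitters' processing notes name bcl2fastq 2.20, Trim Galore 0.6.7, cutadapt 2.10 and Salmon 1.9.0. The deposited estimated counts are Salmon read estimates that the labels describe as not normalized, and the deposited TPM values, scaled for length and to a common total, come from the same output. The index, the annotation, the build and the use of strand are not given in the sources used here. Positions come from Ensembl release 115 (BDGP6.54), in which all 13771 gene IDs were found.

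Estimated counts were rounded, filtered with filterByExpr (minimum count 10, minimum total 15), scaled by TMM and tested on group alone, two-sided, in edgeR 4.0.16 (quasi-likelihood; R 4.3.3), with Benjamini-Hochberg adjustment over all genes or transcripts at 0.05. The SE is the log2 fold change divided by the square root of F. Alternatives used DESeq2 1.42.0, limma 3.58.1 on log2(TPM + 1) or log2(TPM + 0.1), other scalings and filters, a replicate block, subsets of libraries and an eggshell covariate. The edgeR, DESeq2 and limma fits on group alone and the diffSpliceDGE test were tested on simulated counts without pairing. The fits with the replicate block or the eggshell covariate were not. Deviations from group means correlated across genes at r = 0.246, 0.514 and 0.638 for same-numbered libraries 1, 2 and 3, so the numbers in the titles were taken as pairs. For differently numbered libraries r was -0.542 to 0.191, highest for Atx2 KD replicate 2 with Control KD replicate 1. The labels do not say what a number marks. Replicate libraries differed by 45.6 or more in chi-square per degree of freedom, so none was taken as a repeat of another. Each counted as 1 sample, though this check does not show that they came from separate animals. Members and lists were chosen with earlier results of these data known. All members were named, and up to 4 called genes of each list by adjusted p, with exceptions stated. Genes most like a called member were to be named, and no member was called.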

Additional observations from a re-analysis of the deposited data

Results flagged for a closer look

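gammaTub37C in Atx2 KD replicate 3, at 24.6 CPM, lay far below the other 3 libraries of its group, which were at 30.4, 30.8 and 30.4 CPM. Its gap made up 0.938 of the group's range, above Dixon's 95% critical value for 4 samples. Of 16 sets of 4 values examined this was the 1 flagged, and chance flags about 1 in 20. Without that library the log2 fold change of gammaTub37C had an edgeR adjusted p of 0.188.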

How the results depend on the processing

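The count of called genes, 1396, was 2941 with the replicate block, 2150 in DESeq2, 627 in the libraries numbered 1 and 2, 296 with the eggshell covariate, and 467 to 1454 without each library in turn. Called tubulin members, 0, were 4 with the block, 0 to 1 without each library, and 0 in the 9 other alternatives. Called transcripts, 1023, were 654 with the block, 3314 in DESeq2 and 159 to 814 without each library. Genes with unequal transcript change, 202, were 126 in the limma share test and 132 to 210 without each library. The block changed no member call other than those of alphaTub84D, alphaTub67C, betaTub97EF and gammaTub37C. betaTub60D changed by 0.41 with the eggshell covariate and by -0.26 to 0.012 without each library, and its transcript FBtr0343443 by 0.035 with the block and by -0.17 to 0.049 without each library. The cause of these moves was not tested. The other 7 tested members kept their sign in 17 of 17 alternatives. In the 3 libraries numbered 3 and 4, an alternative added after seeing the data, alphaTub84B and betaTub56D turned sign, at -0.06 and -0.08, with betaTub97EF at 0.14 and gammaTub23C at 0.32. Without each library the log2 fold change ranged from 0.24 to 0.57 for betaTub97EF, from 0.03 to 0.26 for alphaTub84B and from -0.44 to -0.20 for alphaTub67C. The family shares moved by less than 1 SD, pooled within groups, in all 80 alternatives. Without each library the difference in share, in percentage points, ranged from -3.01 to -0.99 for alphaTub67C, from 0.586 to 1.06 for betaTub97EF and from -10.8 to -7.45 for gammaTub37C. It changed sign for alphaTub84B (-0.226 to 2.27) and betaTub56D (-0.284 to 1.45), and for alphaTub85E and betaTub85D, which had few reads. For the 10 called pathway genes 69 of 170 values lost the call and none turned sign. At 1 to 15 reads a library, betaTub85D and alphaTub85E could not be compared.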

Other observations

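A pair of tubulin-like genes outside the named family was also listed. betaTub65B was at 4.40, 2.52, 3.51 and 3.46 CPM in Atx2 KD and at 2.40, 1.98 and 3.64 CPM in Control KD. The groups overlapped, and the log2 difference was 0.37 ± 0.26 (SE; edgeR adjusted p = 0.376). CG7794 was at 0.589 to 0.932 CPM in Atx2 KD and 0.600 to 0.879 CPM in Control KD, with a log2 difference of 0.13 ± 0.30 (SE; edgeR adjusted p = 0.809). Both levels lay above those of betaTub85D and alphaTub85E in every library.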
